A study of Mus musculus with 29 samples.

Results

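RNA from Tbr2-positive nuclei of mouse embryonic cortex was compared after vehicle or after trichostatin A (TSA), an inhibitor of zinc-dependent histone deacetylases. All genes that passed a filter on low counts were taken, 20078 of 48709 identifiers, and they were described mainly by gene group, because 2 TSA and 3 vehicle libraries leave little power for a single gene. The 5 libraries are part of 10 RNA libraries and 29 samples in the series, which also profiled Tbr2-negative nuclei and the histone mark H3K9ac. The groups were E16.5 embryonic cortex given vehicle (3 libraries) and E16.5 embryonic cortex given TSA (2 libraries), each sorted for Tbr2. The labels give no dose, exposure time or route for TSA and no mouse strain, and nothing states whether a library is 1 embryo, a pool or a culture. The p values therefore measure the spread between these libraries, which may be technical. The series describes sorted nuclei, the sample labels speak of cells, and the RNA protocol names TRIZOL extraction from whole tissue, so the compartment that was sequenced is not settled by the descriptions.

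Histone acetylation loosens the contact between histones and DNA and is read by bromodomain proteins, while histone deacetylases remove it. Deacetylase inhibitors raise bulk acetylation within hours and shift the transcription of genes in both directions. Basal progenitors, which express the T-box factor Tbr2 (gene Eomes), lie in the subventricular zone and divide to give glutamatergic neurons of the cortex, and chromatin acetylation has been studied as a control of how many of them form.

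The sort was visible in both treatments. Eomes stood at 409.9, 371 and 548 CPM (counts scaled to the same library total after TMM scaling) in vehicle libraries 1, 2 and 3 and at 391 and 462 in TSA libraries 1 and 2, against 8.24 to 22.0 in the 5 Tbr2-negative libraries. The 5 libraries held 22171133 to 24733715 counts and 22121 to 23566 detected genes, so depth was nearly even. Counts on mitochondrial gene symbols took 0.0979, 0.191 and 0.306% of the vehicle and 0.306 and 0.328% of the TSA libraries. On log2 CPM the vehicle libraries correlated with each other at 0.953 to 0.961, the TSA libraries with each other at 0.948, and libraries across treatments at 0.940 to 0.954. The TSA libraries thus resembled each other no more than some of them resembled a vehicle library. The first principal component (30.76% of the variance) set TSA library 1 apart from the other 4. The second (27.75%) set vehicle library 3 apart.

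At the level of single genes no difference passed the threshold. With edgeR's quasi-likelihood test and Benjamini-Hochberg adjustment, 0 genes were called higher and 0 lower at an adjusted p below 0.05, which is 0% of the genes tested in each direction. The smallest adjusted p was 0.0529. At an unadjusted p below 0.05 there were 1615 genes higher in TSA, 8.04% of the genes tested, and 1560 lower, 7.77%. CPM ranges of the groups did not overlap for 3199 genes higher in TSA (15.9%) and 3526 lower (17.6%). DESeq2, the alternative tool, called 549 of 16959 genes higher (3.24%) and 466 lower (2.75%) at an adjusted p below 0.05. A positive log2 difference was found for 9438 genes (47%), and the median over all genes was -0.04. Every count of list members below is read against these shares.

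The gene with the smallest p in the downward direction was Cwc22, a spliceosome component that also loads the exon junction complex onto spliced RNA (chromosome 2, 77881159 to 77946356, GRCm38.p6). It stood at 321, 405 and 278 CPM in vehicle against 89.2 and 120.1 CPM in TSA. Both TSA libraries lay below every vehicle library, and the log2 difference was -1.68 ± 0.22 (SE; edgeR adjusted p = 0.0529). Cwc22 lies in a segment known to vary in copy number among mice, copy number was not measured here, and reads of near-identical copies cannot be told apart in a gene count. In the opposite direction mt-Rnr1, the small ribosomal RNA of the mitochondrion, stood at 26.3, 24.4 and 39.2 CPM in vehicle against 112 and 86.7 CPM in TSA, again with no overlap (1.73 ± 0.24; edgeR adjusted p = 0.0529). Both genes passed without vehicle library 3 (edgeR adjusted p = 0.0437 and 0.0383) and without TSA library 2 (0.0373 for each). Neither passed without vehicle library 1 (0.247 for each), vehicle library 2 (0.0718) or TSA library 1 (0.242).

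Further genes low in TSA encode transporters, receptors and enzymes. Slc38a10, of an amino acid transporter family, stood at 312, 257 and 259 CPM in vehicle against 95.1 and 123 CPM in TSA (-1.34 ± 0.19; edgeR adjusted p = 0.0560). The netrin receptor gene Dcc stood at 624, 373 and 446 CPM in vehicle against 132 and 217 CPM in TSA. Both TSA libraries were the lowest of the 5 for Dcc, and vehicle library 1 was well above the other vehicle libraries. Masp1, a serine protease of the lectin complement pathway, had 170.0, 106 and 134 CPM in vehicle against 45.8 and 60.8 CPM in TSA, and Sema4c, a transmembrane semaphorin, 89.5, 63.8 and 67.6 CPM in vehicle against 12.8 and 30.8 CPM in TSA. Pigb, a mannosyltransferase of the GPI anchor, showed 32.8, 28.3 and 24.2 CPM in vehicle against 5.31 and 11.4 CPM in TSA. The other 9 genes of this direction named by p were Phkg2 (phosphorylase kinase), Leng8, Col9a3 (collagen IX), Edc4 (mRNA decapping), Rnf6 (a ubiquitin ligase), Asah1 (acid ceramidase), Lman2l (an endoplasmic reticulum lectin), Srsf5 (a splicing factor) and Akap8l, with log2 differences from -1.41 (Col9a3) to -0.80 (Asah1). For the 14 genes besides Cwc22 the edgeR adjusted p values ran from 0.0560 for Slc38a10 to 0.0948, so none of them passed in edgeR. DESeq2, the alternative tool, called these 14 and Cwc22 lower at an adjusted p below 0.05. Without TSA library 2 Slc38a10, Masp1, Dcc, Sema4c and Pigb did pass.

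The genes high in TSA with the smallest p mixed ribosomal protein genes with regulators of signalling and differentiation. Ppp2r2c, a regulatory subunit of protein phosphatase 2A, stood at 10.4, 13.4 and 10.2 CPM in vehicle against 28.4 and 29.2 CPM in TSA (1.34 ± 0.21; edgeR adjusted p = 0.0819). Vldlr, a receptor for reelin (chromosome 19, 27216480 to 27254231), stood at 32.7, 36.8 and 30.8 CPM in vehicle against 70.7 and 56.5 CPM in TSA (0.93 ± 0.15). Bhlhe22, a basic helix-loop-helix factor of cortical projection neurons, had 66.8, 67.8 and 82.00 CPM in vehicle against 139.7 and 152 CPM in TSA (1.02 ± 0.19). The vehicle libraries of these genes were close together, and both TSA libraries lay above them. Tmsb10, a thymosin that binds actin monomers, stood at 103, 163 and 178 CPM in vehicle against 371 and 367 CPM in TSA (1.32 ± 0.23). Rps12, Rpl12, Rpl35 and Rplp1 came from the cytosolic ribosome, and Pfdn4 from the prefoldin chaperone. Selenow, a small selenoprotein, stood at 166, 244 and 263 CPM in vehicle against 577 and 470.4 CPM in TSA, and Nkain2, which encodes a membrane protein of neurons, at 8.64, 9.93 and 7.92 CPM in vehicle against 20.4 and 24.8 CPM in TSA. Mmd, Prkrip1 and Serf1 completed the genes of this direction, and none of the 15 passed in edgeR (edgeR adjusted p = 0.0529 to 0.0948). DESeq2, the alternative tool, called all 15 higher at an adjusted p below 0.05. Without TSA library 2, Vldlr, Rpl12, Serf1 and mt-Rnr1 did pass. Because the 15 genes of each direction were picked for a small p and for ranges that do not overlap, their agreement between libraries is no further evidence.

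**Figure D1:**
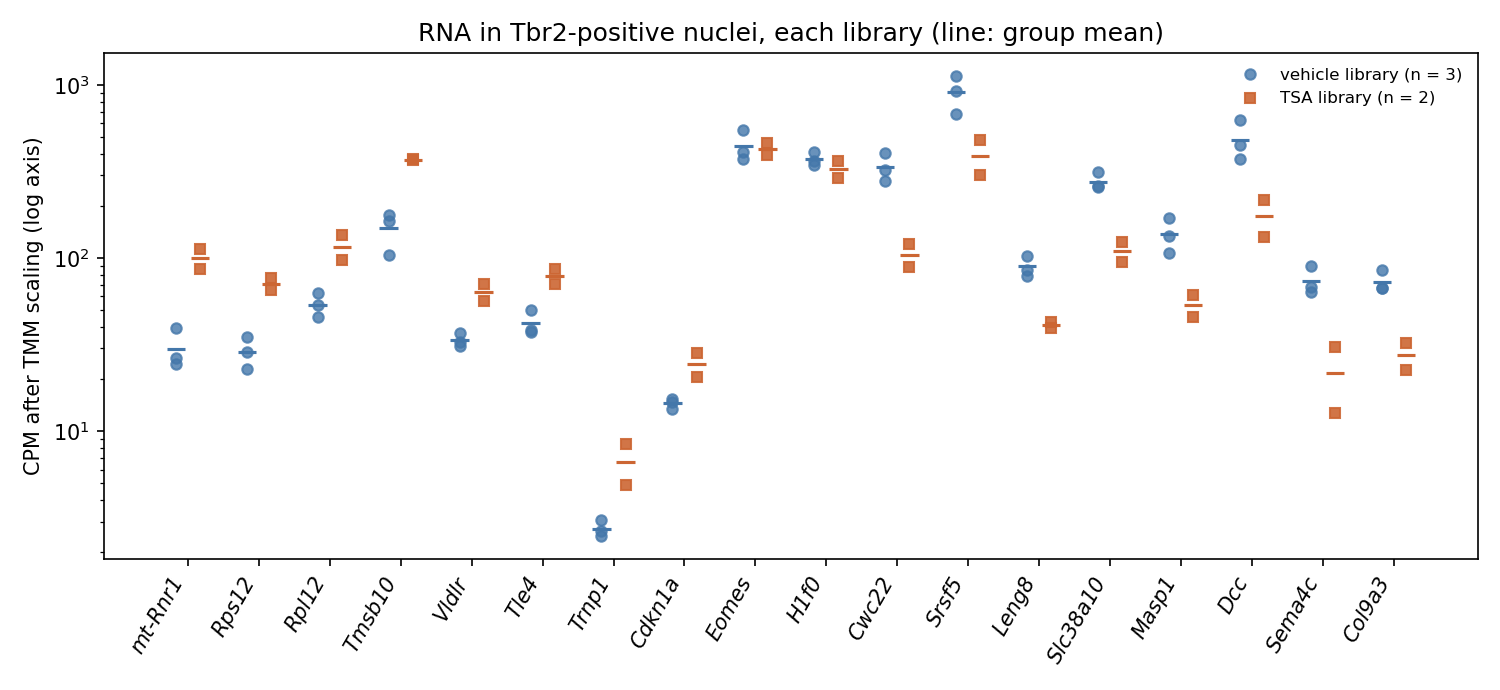
CPM after TMM scaling (log axis) of 18 genes in each Tbr2-positive library; circles are the 3 vehicle libraries, squares the 2 TSA libraries and horizontal lines the group means. For Eomes and H1f0 the groups overlap, while for Cwc22, Dcc and mt-Rnr1 both TSA libraries lie outside the vehicle range.

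Cytosolic ribosomal protein genes encode the protein parts of the ribosome, and many of their promoters carry a pyrimidine tract at the start site, which also places the transcripts under translational control. To show what such a tract looks like, the 60 bases around the start are printed here for 6 members, chosen because they hold CTTTCC on the gene's own strand within 10 bases of the start, with the longest match to TCTTTCC or CTTTCC in capitals, followed by Rps12 and Rpl12, high in TSA and without that match. Each runs 5′ to 3′ from 40 bases before the start and is taken from RefSeq's promoters of GRCm38.p6.
Rpl18 (chr7:45718031-45718090, plus strand): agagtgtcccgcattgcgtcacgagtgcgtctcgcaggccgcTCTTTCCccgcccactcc
Rpl28 (chr7:4792925-4792984, plus strand): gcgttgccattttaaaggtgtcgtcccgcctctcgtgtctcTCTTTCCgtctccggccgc
Rpl38 (chr11:114668540-114668599, plus strand): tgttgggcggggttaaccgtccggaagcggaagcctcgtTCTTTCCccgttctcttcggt
Rpl35 (chr2:39005112-39005171, minus strand): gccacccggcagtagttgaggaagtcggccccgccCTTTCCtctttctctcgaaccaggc
Rps10 (chr17:27635225-27635284, minus strand): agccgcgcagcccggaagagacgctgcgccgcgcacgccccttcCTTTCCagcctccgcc
Rps27 (chr3:90213629-90213688, minus strand): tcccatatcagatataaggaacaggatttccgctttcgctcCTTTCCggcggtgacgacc
Rps12 (chr10:23787190-23787249, minus strand): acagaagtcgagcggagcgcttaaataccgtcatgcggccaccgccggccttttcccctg
Rpl12 (chr2:32961672-32961731, plus strand): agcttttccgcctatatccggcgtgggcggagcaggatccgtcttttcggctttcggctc

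In RefSeq windows from 250 bases before to 50 bases after a start, CTTTCC on either strand was present in 33 of 68 windows of 58 ribosomal protein genes (48.5%) and in 26.6% of all 32851 windows. TCTTTCC, which contains CTTTCC, was present in 25% and 8.29%. Within 10 bases of the start on the gene's own strand CTTTCC was found in 8 of 68 ribosomal protein windows (11.8%) and in 0.837% of all windows. Among the genes with the smallest p, 12 of the 15 high in TSA had a window, and 3 of their 15 windows held CTTTCC (20%). For the genes low in TSA 4 of 15 windows from 11 genes did (26.7%). A match is a description of letters only.

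Of 80 ribosomal protein genes in the list 79 were tested, and 78 of them had a positive log2 difference, with a median of 0.82 against -0.04 over all genes. None passed alone. At an unadjusted p below 0.05 there were 74 higher and 0 lower, beside 8.04% and 7.77% over all genes, and DESeq2 called 57 as higher. Rps12 of the small subunit stood at 22.8, 28.5 and 34.8 CPM in vehicle against 76.8 and 65.4 CPM in TSA (1.31 ± 0.22). Rpl35 of the large subunit stood at 28.5, 41.3 and 46.5 CPM in vehicle against 98.01 and 83.6 CPM in TSA (1.23 ± 0.23), and Rpl12, near the factor-binding stalk, at 45.6, 62.5 and 53.4 CPM in vehicle against 135 and 96.8 CPM in TSA (1.11 ± 0.19). The stalk protein Rplp1 had 83.7, 103 and 110.1 CPM in vehicle against 211 and 178 CPM in TSA. No vehicle library reached a TSA library in any of these 4 genes, and the highest vehicle library was library 2 for Rpl12 and library 3 for the others. Rps29 (log2 difference 1.11 ± 0.21), Rps27 (1.07 ± 0.22), Rpl38 (1.04 ± 0.22), Rps10 (0.82 ± 0.19), Rpl28 (0.74 ± 0.21) and Rpl18 (0.55 ± 0.19) lay across the range of the list. Rpl3, a core protein of the large subunit, was near the low end at 0.32 ± 0.19. The 1 negative member was Rpl24 (-0.37 ± 0.51), counted at a mean of only 2.92 CPM in vehicle. Ribosomal protein genes have many processed pseudogenes that share reads, so counts of single members are less certain than their sum.

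Summed over the list, ribosomal protein RNA made 7332, 9778 and 10860 CPM in vehicle libraries 1, 2 and 3 and 17120 and 14920 CPM in TSA libraries 1 and 2. Across vehicle libraries 1, 2 and 3 this sum rose with the mitochondrial share of counts (0.0979, 0.191 and 0.306%). TSA libraries 1 and 2 had shares of 0.306 and 0.328%. Leaving out any 1 library kept the median between 0.68 (without vehicle library 1) and 0.98 (without vehicle library 3). Short, cytoplasmic messages such as these can enter a preparation of nuclei with cytoplasm. The nuclear long noncoding RNAs, described further on, summed to 15050, 12210 and 12040 CPM in vehicle and 7027 and 12810 CPM in TSA in the same libraries. The part of carried-over cytoplasm in the ribosomal protein result was not tested.

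Translation factors lay in the same direction with larger spread among members. Of 26 genes for initiation, elongation and nascent-chain factors 22 were positive, 17 were higher and 1 lower at an unadjusted p below 0.05, and the median was 0.49. Tpt1, translationally controlled tumour protein, stood at 93.7, 123 and 126 CPM in vehicle against 276 and 228 CPM in TSA (1.14 ± 0.23). Eif3k and Eif3f, subunit genes of initiation factor 3, were at 0.95 ± 0.23 and 0.91 ± 0.22, while the largest subunit Eif3a was at -0.23 ± 0.18. The elongation factor Eef1a1 had 0.61 ± 0.23 and the GTPase Eef2, which moves the ribosome along the message, 0.02 ± 0.17. Eif4g1, the scaffold that joins cap and ribosome, was the exception with -0.69 ± 0.20 and a DESeq2 call as lower. The list therefore split within single complexes. Without TSA library 1 its median was 0.24.

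Genes of the respiratory chain encoded in the nucleus formed the second large group. These subunits are made in the cytosol and imported into mitochondria. Of 85 symbols 80 were tested, 78 were positive, 55 were higher and 2 lower at an unadjusted p below 0.05, and the median was 0.55. DESeq2 called 31 higher and 1 lower. Cox7b of complex IV stood at 150.3, 165 and 181 CPM in vehicle against 255 and 419.8 CPM in TSA (1.03 ± 0.21), and Atp5mpl of the ATP synthase at 82.2, 99.8 and 109 CPM in vehicle against 196 and 184 CPM in TSA (0.97 ± 0.21). Ndufb6 of complex I (0.87 ± 0.20) and Uqcrb of complex III (0.87 ± 0.19) were similar. The catalytic subunits of the ATP synthase, Atp5b (0.18 ± 0.19) and Atp5a1 (0.19 ± 0.16), had smaller values. The 2 negative members were Sdha, the flavoprotein of complex II, at 307, 315 and 256 CPM in vehicle against 158 and 187 CPM in TSA (-0.76 ± 0.16) and Ndufs1, a core subunit of complex I (-0.44 ± 0.14). The list summed to 13600, 15570 and 16500 CPM in vehicle and 22500 and 19370 CPM in TSA, without overlap.

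Mitochondrial ribosomal proteins, which serve translation inside the organelle, were positive for 69 of 76 genes tested with a median of 0.37. At an unadjusted p below 0.05, 30 were higher and 0 lower. Mrpl42 stood at 67.5, 95.04 and 106 CPM in vehicle against 159.5 and 164 CPM in TSA (0.85 ± 0.21), Mrpl18 at 64.2, 89.8 and 102 CPM in vehicle against 151 and 139.8 CPM in TSA, and Mrpl34 at 74.5, 75.9 and 77.5 CPM in vehicle against 138 and 96.2 CPM in TSA. Without TSA library 1 the median of the list was 0.24. Transcripts of the mitochondrial genome itself behaved differently from library to library. The ribosomal RNA mt-Rnr2 stood at 356, 380.3 and 513 CPM in vehicle against 883 and 841 CPM in TSA (1.05 ± 0.27; edgeR adjusted p = 0.102). Of 13 protein-coding mitochondrial genes 6 had no count in the Tbr2-positive libraries, and of the 7 tested 0 reached an unadjusted p below 0.05. mt-Nd1 had 120.1, 305 and 525 CPM in vehicle against 605 and 617 CPM in TSA, so the vehicle libraries spread further than their distance to TSA, and mt-Co1 had 139.9, 269 and 416 CPM in vehicle against 470.4 and 472 CPM in TSA. Their sum was 558, 1484 and 2530 CPM in vehicle and 2201 and 2372 CPM in TSA, so vehicle library 3 exceeded both TSA libraries. The median of the 7 genes was 0.76, 0.39 without vehicle library 1 and 1.22 without vehicle library 3.

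Protein turnover and folding followed with smaller differences. Proteasome subunit genes were positive for 34 of 37 tested (median 0.33), with 9 higher and 1 lower at an unadjusted p below 0.05. The catalytic subunit Psmb6 stood at 359.9, 468 and 522 CPM in vehicle against 827 and 658 CPM in TSA (0.72 ± 0.19). Psmd1, a scaffold of the regulatory cap, was at 417, 439.5 and 383 CPM in vehicle against 262 and 309 CPM in TSA (-0.53 ± 0.15). The median was 0.21 without vehicle library 1 and 0.19 without TSA library 1. Chaperone genes had a median of 0.26, with 21 of 24 positive, 8 higher and 0 lower (0.42 without TSA library 2). Pfdn4 of prefoldin, which hands unfolded actin and tubulin to the chaperonin, stood at 32.6, 45.95 and 45.8 CPM in vehicle against 85.6 and 78.9 CPM in TSA (0.99 ± 0.18). The Cct chaperonin genes ran from -0.07 for Cct3 to 0.33 for Cct7. Hspa5, the chaperone of the endoplasmic reticulum, was at -0.49 ± 0.27.

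Cytoskeletal genes also leaned upward. Of 15 actin-related genes 13 were positive, 6 were higher and 1 lower at an unadjusted p below 0.05, and the median was 0.33 (0.18 without TSA library 1, 0.50 without TSA library 2). Tmsb4x, the most abundant thymosin here, stood at 1290.0, 1859 and 1886 CPM in vehicle against 4053 and 3270.0 CPM in TSA (1.13 ± 0.25). The depolymerizing factor Dstn had 227, 316 and 279 CPM in vehicle against 583 and 384 CPM in TSA (0.82 ± 0.23) and Actb, cytoplasmic actin, 0.74 ± 0.22. Gsn, the severing protein gelsolin, went the other way at 9.14, 14.9 and 5.59 CPM in vehicle against 5.31 and 1.91 CPM in TSA (-1.45 ± 0.51). Among 20 tubulin and microtubule genes 19 were positive (median 0.28), 7 were higher and 0 lower. The stathmins, which sequester tubulin, led: Stmn2 at 463, 714 and 429.8 CPM in vehicle against 1197 and 894 CPM in TSA (0.97 ± 0.25), Stmn3 at 0.69 ± 0.18 and Stmn1 at 0.62 ± 0.21. The major tubulin Tuba1a was at 0.15 ± 0.18. Map1b, with a long transcript, was the 1 negative member at -0.18 ± 0.21.

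**Figure D2:**
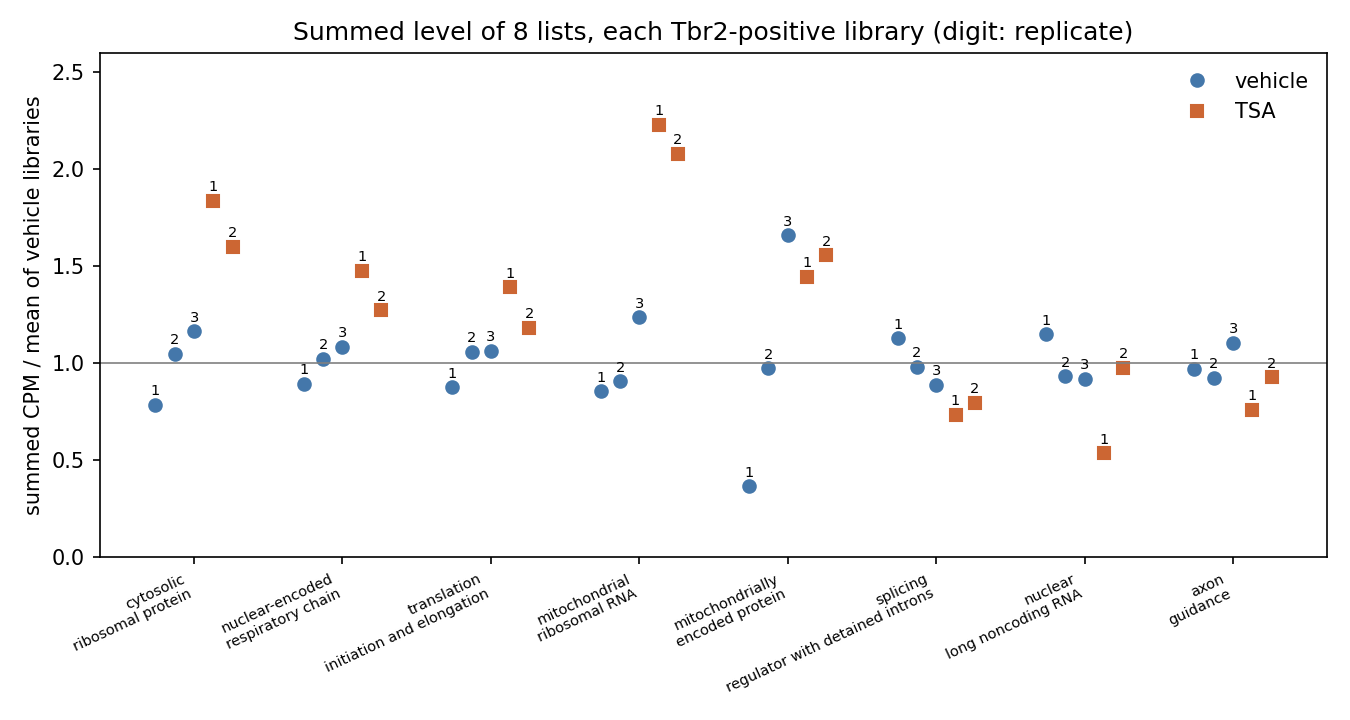
Summed CPM of 8 gene lists in each Tbr2-positive library, divided by the mean of the 3 vehicle libraries (line at 1); circles are vehicle and squares TSA libraries, and the digit is the replicate number. Ribosomal protein, respiratory chain and translation factor sums lie higher in both TSA libraries than in any vehicle library, while for nuclear long noncoding RNA TSA library 2 lies among the vehicle libraries.

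Lists of splicing regulators and of nuclear RNA lay below the median of all genes. Splicing regulators whose transcripts are known to keep introns and to be detained in the nucleus were positive for 6 of 28 genes, with a median of -0.29. Cwc22 is a member of this list. At an unadjusted p below 0.05, 0 were higher and 10 lower, and DESeq2 called 8 lower. Srsf5, an SR protein, stood at 1124, 925 and 681 CPM in vehicle against 299.6 and 478 CPM in TSA (-1.23 ± 0.25; edgeR adjusted p = 0.0948). Leng8 had 103, 85.6 and 79.01 CPM in vehicle against 39.4 and 42.5 CPM in TSA (-1.12 ± 0.20). Rsrp1 (-0.87 ± 0.25), the SR protein kinases Clk1 (-0.76 ± 0.21) and Clk4 (-0.62 ± 0.16), Pnisr (-0.71 ± 0.21) and Rbm5 (-0.65 ± 0.18) followed. Srsf3 (0.11 ± 0.15), Srsf6 (0.24 ± 0.16) and Tra2b (0.15 ± 0.15), of the same families, had positive values. The list summed to 19010, 16520 and 14980 CPM in vehicle and 12390 and 13430 CPM in TSA, and without vehicle library 1 its median was -0.18.

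The list of the exon junction complex, which also holds its loading factor Cwc22 and genes of RNA decay, had members on both sides of 0. Of 13 genes 7 were positive, 2 were higher and 3 lower at an unadjusted p below 0.05, and the median was 0.04. The core pair Magoh (0.62 ± 0.22) and Magohb (24.4, 31.6 and 28.96 CPM in vehicle, 45.9 and 46.4 in TSA, 0.70 ± 0.21) was high in TSA. The helicase Eif4a3, which Cwc22 delivers, was at 0.44 ± 0.21. Pnn (425, 351 and 280.0 CPM in vehicle against 132 and 256 CPM in TSA, -0.86 ± 0.26) and the decay helicase Upf1 (-0.85 ± 0.30) were low in TSA. Leaving out 1 library at a time gave medians of -0.20 (TSA library 2 out) to 0.12 (vehicle library 3 out).

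Of 12 nuclear long noncoding RNAs 11 were tested, 4 were positive and the median was -0.36 (-0.22 without TSA library 1). At an unadjusted p below 0.05, 0 were higher and 4 lower, among them Miat at 344, 272 and 438 CPM in vehicle against 114 and 256 CPM in TSA (-0.93 ± 0.37) and Snhg11 at 194, 222 and 108 CPM in vehicle against 44.5 and 109 CPM in TSA (-1.19 ± 0.39). Meg3, of the imprinted Dlk1 locus, stood at 225, 279 and 143 CPM in vehicle against 61.8 and 152 CPM in TSA (-1.01 ± 0.41). In each of these 3 genes TSA library 1 was the lowest of the 5, and TSA library 2 lay near or within the vehicle range. Malat1, by far the most abundant, was at -0.40 ± 0.33, and Tug1 at 0.38 ± 0.18. DESeq2 called 0 of the 11. Over all genes tested, long noncoding RNAs (1379) had a median of -0.25 and small nucleolar RNAs (92) -0.57, beside 0.00 for 14381 protein-coding genes.

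Gene length and level moved with the result and are given for that reason. The 25% of genes with the shortest genomic span (28 to 7470 bases) had a median of 0.11, and the next groups of equal size -0.02, -0.07 and -0.04 in order of span. Without its 181 genes of the translation, mitochondrial and protein turnover lists the shortest group had a median of 0.08. By mean CPM the medians ran from -0.26 in the lowest 25% of genes to 0.06 in the highest. The part of length and abundance in the list results was not tested.

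**Figure D3:**
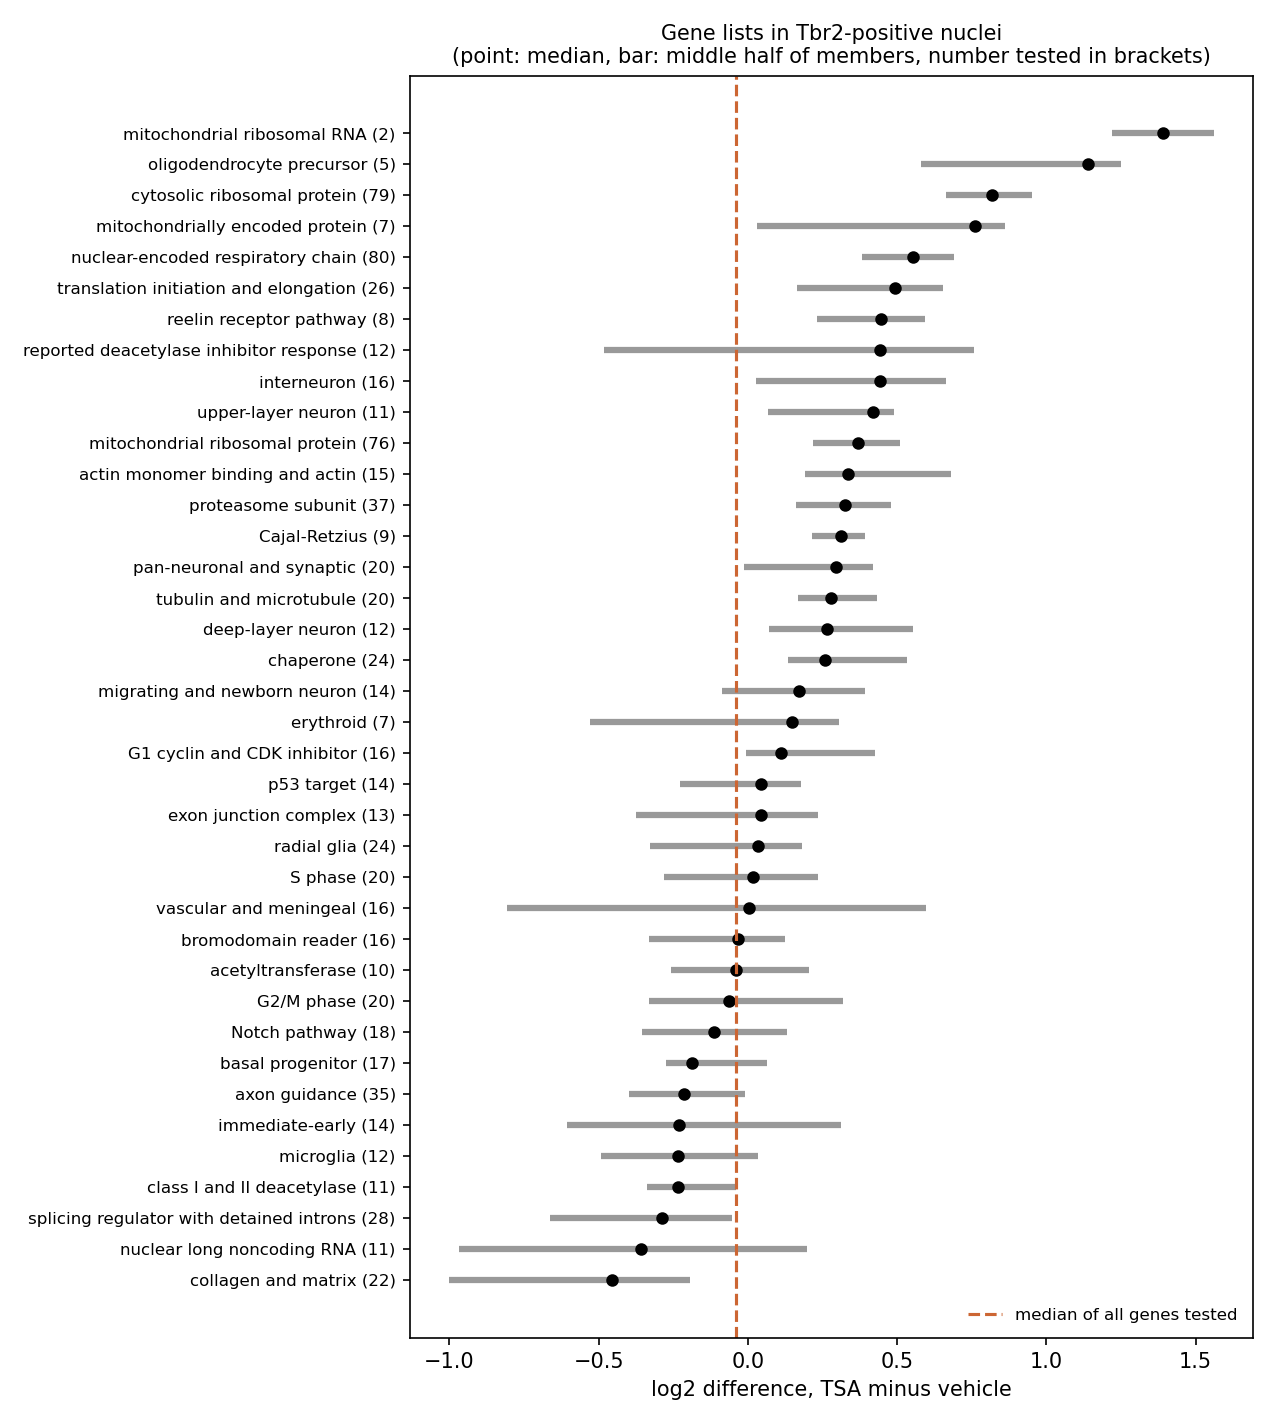
Median log2 difference of TSA minus vehicle in Tbr2-positive nuclei for the 38 gene lists, ordered by the median; points are medians, bars span the middle 50% of the members tested, their number is in brackets and the dashed line is the median of all genes tested. The highest medians are those of mitochondrial ribosomal RNA (1.39), the 5 oligodendrocyte precursor genes (1.14) and cytosolic ribosomal proteins (0.82), and matrix, noncoding RNA and splicing lists lie at the bottom, down to -0.45.

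Axon guidance genes leaned to lower values in TSA. Of 35 ligands and receptors 8 were positive, 3 were higher and 7 lower at an unadjusted p below 0.05, and the median was -0.21. Among netrin receptors, Dcc (-1.47 ± 0.26) and Unc5a (-0.77 ± 0.26) were low in TSA while Unc5d, abundant in Tbr2-positive cells, was at 0.06 ± 0.20. Sema4c, a ligand of B-type plexins, was at -1.76 ± 0.32, and its receptors Plxnb2 and Plxnb1 at -0.29 ± 0.22 and -0.41 ± 0.23. The ephrin receptor Epha7 stood at 310.5, 252 and 260.0 CPM in vehicle against 146 and 178 CPM in TSA (-0.76 ± 0.19), its relative Epha5 was at 0.17 ± 0.15, and the ligands Efnb1 and Efnb2 were at -0.63 ± 0.24 and 0.47 ± 0.21. Slit2 was at -0.57 ± 0.23 and its receptor Robo1 at 0.45 ± 0.19. The median of the list was -0.13 without vehicle library 3, -0.13 without TSA library 1 and -0.34 without TSA library 2.

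Matrix genes had the lowest median of the 38 lists described, -0.45, with 3 of 22 positive, 1 higher and 5 lower at an unadjusted p below 0.05. Col9a3 stood at 85.01, 66.7 and 66.9 CPM in vehicle against 22.6 and 32.4 CPM in TSA (-1.41 ± 0.26). Its partner chain Col9a2 was at -1.22 ± 0.44. Col2a1, the fibrillar collagen that associates with collagen IX, stood at 14.8, 8.90 and 15.05 CPM in vehicle against 3.86 and 5.92 CPM in TSA (-1.40 ± 0.42), and the basement membrane chain Col18a1 at 12.01, 8.41 and 15.05 CPM in vehicle against 6.62 and 2.23 CPM in TSA (-1.41 ± 0.48). Most of these genes were counted at under 20 CPM. Lamb1 was at -0.66 ± 0.27 and the 1 member higher in TSA at that p was Reln, with 172, 94.9 and 107 CPM in vehicle against 238 and 142 CPM in TSA (0.61 ± 0.28). The vascular and meningeal marker list, a possible source of matrix RNA, summed to 49.5, 81.2 and 38.9 CPM in vehicle and 50.3 and 54.5 CPM in TSA, with overlap. In that list the median was 0.00 (leaving out 1 library at a time, -0.21 (vehicle library 3 out) to 0.48 (vehicle library 2 out)), 1 gene was higher and 1 lower at an unadjusted p below 0.05, and its part in the matrix result was not tested.

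The reelin pathway, which guides the radial placement of new neurons, had a median of 0.45, with 7 of 8 genes positive, 4 higher and 0 lower at an unadjusted p below 0.05. Reelin binds Vldlr and Lrp8 on the migrating neuron, and Dab1, Crk and Lis1 (gene Pafah1b1) act downstream. Vldlr differed between the treatments by 0.93 ± 0.15 and Lrp8 by 0.01 ± 0.18, so the values of the receptor pair lay apart. Pafah1b1 stood at 146, 147 and 149.7 CPM in vehicle against 251 and 194 CPM in TSA (0.59 ± 0.17), Crk at 0.42 ± 0.20 and Dab1 at 0.31 ± 0.28. Without TSA library 1 the median of the list was 0.24. Notch pathway genes had a median of -0.12 (-0.07 without TSA library 2), with 1 of 18 higher and 3 lower at an unadjusted p below 0.05. The ligand Dll1 stood at 76.7, 55.1 and 90.2 CPM in vehicle against 53.02 and 41.4 CPM in TSA (-0.65 ± 0.22) and Rbpj, the nuclear effector of Notch, at 43.8, 44.4 and 43.4 CPM in vehicle against 57.8 and 67.99 CPM in TSA (0.52 ± 0.18). The targets Hes1 (0.14 ± 0.42) and Hes5 (0.10 ± 0.29) and the receptor Notch1 (-0.22 ± 0.33) were within their errors of 0. Heyl was at -4.34 ± 1.76 but was counted at under 3 CPM in each library.

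Genes that mark basal progenitors had values on both sides of 0. Fewer cells of a type and less RNA per cell cannot be told apart in such libraries. Of 17 genes 5 were positive, the median was -0.19, and 2 were higher and 0 lower at an unadjusted p below 0.05. The 2 were Insm1 and Cdh11 (0.39 ± 0.15). Cdh11 had a vehicle mean of 29.3 CPM in Tbr2-positive and 152 CPM in Tbr2-negative nuclei, so it did not mark the Tbr2-positive population here. Eomes itself differed by -0.05 ± 0.24 (edgeR adjusted p = 0.946). Neurog2 (-0.21 ± 0.24) and Neurod1 (-0.02 ± 0.22), successive proneural factors of this lineage, were within their errors of 0. Insm1, a zinc finger factor that promotes basal progenitor formation, stood at 38.1, 55.5 and 94.1 CPM in vehicle against 106 and 133 CPM in TSA (0.94 ± 0.28; edgeR adjusted p = 0.138), and the vehicle libraries spread further than their distance to TSA library 1. Mfap4 had 1097, 548 and 961 CPM in vehicle against 714 and 297 CPM in TSA (-0.78 ± 0.37), with overlap. The median of the list was 0.02 without vehicle library 3, -0.03 without TSA library 2 and -0.10 without vehicle library 1, and the list summed to 5455, 4178 and 6122 CPM in vehicle and 4845 and 4224 CPM in TSA.

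Radial glial genes, which mark the apical parents of basal progenitors, had a median of 0.03, with 14 of 24 positive, 2 higher and 1 lower at an unadjusted p below 0.05. Pax6 (-0.13 ± 0.24), Sox2 (0.19 ± 0.21), Vim (-0.05 ± 0.18) and Hopx (0.15 ± 0.25) were within their errors of 0. The Id protein gene Id4 stood at 22.4, 27.7 and 23.99 CPM in vehicle against 47.2 and 38.7 CPM in TSA (0.80 ± 0.20; edgeR adjusted p = 0.102) and the glutamate transporter Slc1a3 at 281, 227 and 250.1 CPM in vehicle against 192 and 171 CPM in TSA (-0.48 ± 0.20). Leaving out 1 library at a time gave medians of -0.12 (vehicle library 1 out) to 0.12 (vehicle library 2 out). Trnp1, a nuclear protein that influences whether progenitors stay apical or expand basally, stood at 2.48, 2.64 and 3.08 CPM in vehicle against 8.45 and 4.88 CPM in TSA (1.28 ± 0.40; edgeR adjusted p = 0.152). These are low levels, and both TSA libraries lay above all vehicle libraries.

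Neuronal lists leaned to higher values. Of 14 genes of migrating and newborn neurons 9 were positive (median 0.17), with 3 higher and 0 lower at an unadjusted p below 0.05. Cdk5r1, the activator of the kinase Cdk5, had a mean of 119 CPM in vehicle and 205 CPM in TSA without overlap (0.78 ± 0.16), and Neurod2, a later factor of the proneural cascade, stood at 119, 148 and 154 CPM in vehicle against 203 and 235 CPM in TSA (0.64 ± 0.16). The widely used marker Dcx was at 0.19 ± 0.16. The median was 0.10 without vehicle library 1, 0.28 without vehicle library 3 and 0.01 without TSA library 2. Among pan-neuronal genes 14 of 20 were positive (median 0.29), 5 higher and 0 lower, led by Stmn2, Ina (61.2, 93.6 and 60.8 CPM in vehicle against 122 and 121 CPM in TSA, 0.76 ± 0.20) and Gap43 (0.66 ± 0.24). Synaptic genes of the list lay on both sides of 0, from -0.35 for Syp to 0.40 for Syt1. The median was 0.15 without vehicle library 3 and 0.17 without TSA library 2.

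Most layer markers also had positive values, 9 of 12 in the deep-layer and 9 of 11 in the upper-layer list. Tle4, a corepressor of corticothalamic neurons, stood at 37.4, 50.2 and 38.3 CPM in vehicle against 86.2 and 70.9 CPM in TSA (0.90 ± 0.17; edgeR adjusted p = 0.0948). Crym had 31.8, 44.3 and 19.7 CPM in vehicle against 75.1 and 51.1 CPM in TSA (0.98 ± 0.27) and Bcl11b, which encodes Ctip2, 54.2, 82.9 and 89.1 CPM in vehicle against 98.7 and 137 CPM in TSA (0.64 ± 0.23). Foxp2, also a deep-layer gene, was at -0.52 ± 0.21, and Tbr1 at 0.25 ± 0.21. Of 12 deep-layer genes 3 were higher and 1 lower at an unadjusted p below 0.05 (median 0.26). Of 11 upper-layer genes 2 were higher and 0 lower (median 0.42), namely Plxnd1 at 1.22, 3.38 and 1.32 CPM in vehicle against 5.52 and 3.28 CPM in TSA (1.15 ± 0.48), with overlap, and Lhx2, also a radial glial gene (0.42 ± 0.19). The upper-layer median was 0.26 without vehicle library 3 and 0.22 without TSA library 2.

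Markers of other cell types were present at levels that differed widely between the lists. Of 16 interneuron genes 12 were positive (median 0.44), 3 higher and 1 lower at an unadjusted p below 0.05, with a sum of 197, 346 and 179 CPM in vehicle and 334 and 309.5 CPM in TSA that overlapped. Vehicle library 2 was the highest of the 5, and without it the median was 0.85, while without vehicle library 3 it was 0.22. The neuropeptide gene Sst stood at 16.05, 31.7 and 21.4 CPM in vehicle against 57.01 and 48.6 CPM in TSA (1.19 ± 0.26; edgeR adjusted p = 0.0948), but Dlx2 (-0.06 ± 0.34), Gad2 (-0.10 ± 0.26) and Lhx6 (0.45 ± 0.29) were within 2 errors of 0. The 5 oligodendrocyte precursor genes tested had positive values, 1 with an unadjusted p below 0.05, and a sum of only 6.82, 12.9 and 11.05 CPM in vehicle and 20.2 and 18.3 CPM in TSA. Their median was 1.14, 0.58 without TSA library 1 and 0.74 without TSA library 2. All 9 Cajal-Retzius genes tested were positive, 2 at an unadjusted p below 0.05, with a median of 0.31 and overlapping sums of 399.5, 224 and 233 CPM in vehicle against 448 and 324 CPM in TSA (0.58 without vehicle library 1, 0.19 without vehicle library 3, 0.18 without TSA library 1). Sums of microglial genes (38.8, 48.9 and 33.5 CPM in vehicle against 38.03 and 27.98 CPM in TSA) and of erythroid genes (283, 456 and 389.5 CPM in vehicle against 523 and 346 CPM in TSA) overlapped between the treatments, with medians of -0.23 and 0.15, 0 higher in both lists, 1 microglial gene lower (C1qa, -1.21 ± 0.52) and 0 erythroid genes lower at an unadjusted p below 0.05. Leaving out 1 library at a time gave microglial medians of -0.49 (TSA library 1 out) to -0.02 (TSA library 2 out) and erythroid medians of -0.27 (TSA library 1 out) to 0.47 (TSA library 2 out).

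Lists of the targets of TSA and the machinery of acetylation had medians of -0.23 to -0.03, beside -0.04 over all genes. Of 11 deacetylase genes 3 were positive, the median was -0.23, and 0 were higher and 2 lower at an unadjusted p below 0.05. Hdac1 stood at 74.9, 85.2 and 96.04 CPM in vehicle against 81.4 and 72.6 CPM in TSA (-0.15 ± 0.17), with overlap, and Hdac2 at 249, 301 and 274 CPM in vehicle against 306 and 331 CPM in TSA (0.22 ± 0.16). The class I gene Hdac8 had 24.7, 33.4 and 32.8 CPM in vehicle against 13.1 and 23.8 CPM in TSA (-0.71 ± 0.30), and the class IIb gene Hdac10 42.9, 36.7 and 18.4 CPM in vehicle against 18.4 and 15.4 CPM in TSA (-0.95 ± 0.35; edgeR adjusted p = 0.215). The median was -0.11 without vehicle library 3, -0.12 without TSA library 1 and -0.35 without TSA library 2. Acetyltransferase genes had a median of -0.04 with 0 of 10 past an unadjusted p of 0.05 in either direction, and Crebbp (0.09 ± 0.17) and Ep300 (-0.17 ± 0.19) were within their errors of 0. Leaving out 1 library at a time gave medians of -0.17 (TSA library 2 out) to 0.04 (vehicle library 3 out). Among 16 bromodomain genes (median -0.03; -0.17 (TSA library 2 out) to 0.12 (vehicle library 3 out)) Brd2 (139.5, 126 and 143 CPM in vehicle against 192 and 165 CPM in TSA, 0.39 ± 0.17) was the 1 higher and Brd8 (-0.54 ± 0.18) the 1 lower.

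Genes reported to respond to deacetylase inhibitors had values on both sides of 0. Of 12 tested 7 were positive, 4 were higher and 1 lower at an unadjusted p below 0.05, and the median was 0.44, which was 0.03 without TSA library 1 and 0.69 without TSA library 2. Cdkn1a (p21, an inhibitor of cyclin-dependent kinases) stood at 14.7, 15.4 and 13.4 CPM in vehicle against 28.3 and 20.6 CPM in TSA (0.75 ± 0.26; edgeR adjusted p = 0.183). The metallothionein Mt1 was at 0.76 ± 0.32. H1f0, a linker histone gene often cited for such a response, stood at 343, 363 and 409.8 CPM in vehicle against 291 and 361 CPM in TSA (-0.19 ± 0.15; edgeR adjusted p = 0.588), with overlap, and Gsn was at -1.45 ± 0.51. Among other brakes on G1, Cdkn1b (p27) stood at 45.6, 40.2 and 56.7 CPM in vehicle against 67.4 and 70.7 CPM in TSA (0.54 ± 0.18) and the retinoblastoma gene Rb1 at 57.8, 74.4 and 80.5 CPM in vehicle against 97.5 and 128 CPM in TSA (0.67 ± 0.22). The inhibitor Cdkn2c was lower in both TSA libraries than in every vehicle library, with means of 9.06 CPM in vehicle and 6.04 CPM in TSA (-0.58 ± 0.40; edgeR adjusted p = 0.504). Of 16 G1 genes Cdkn1a, Cdkn1b and Rb1 were past an unadjusted p of 0.05 (median 0.11; leaving out 1 library at a time, 0.06 (TSA library 1 out) to 0.24 (vehicle library 2 out)), and the cyclins Ccnd1 (-0.17 ± 0.29) and Ccnd2 (-0.09 ± 0.19) were within their errors of 0.

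Cell cycle lists had medians of 0.02 and -0.06 beside -0.04 over all genes. Of 20 S-phase genes 1 was higher and 1 lower at an unadjusted p below 0.05, the lower one being the ribonucleotide reductase gene Rrm1 (-0.47 ± 0.20), and Pcna was at 0.23 ± 0.20. Of 20 G2/M genes 0 were higher and 2 lower (median -0.06), the kinesin Kif20a at 22.2, 32.2 and 18.05 CPM in vehicle against 10.6 and 10.4 CPM in TSA (-1.20 ± 0.39) and the kinetochore motor Cenpe (-0.72 ± 0.33). Mki67 was at -0.32 ± 0.34. Cdk1 stood at 50.2, 97.5 and 63.5 CPM in vehicle but at 150.3 and 64.9 CPM in the TSA libraries, the first above every vehicle library and the second among them. The G2/M sums of 1098, 1489 and 1057 CPM in vehicle against 1418 and 924 CPM in TSA also placed TSA library 1 above TSA library 2. Leaving out 1 library at a time gave G2/M medians of -0.32 (TSA library 1 out) to 0.20 (TSA library 2 out) and S-phase medians of -0.20 (TSA library 1 out) to 0.21 (TSA library 2 out). Of 14 p53 targets Cdkn1a was the 1 higher and Sesn1 (-0.45 ± 0.20) the 1 lower (median 0.05; leaving out 1 library at a time, -0.12 (TSA library 1 out) to 0.14 (vehicle library 1 out)). Of 14 immediate-early genes tested, Npas4 (2.998 ± 1.22, under 2 CPM) was the 1 higher, and Fos was at -0.53 ± 0.82. The immediate-early median was -0.23, and leaving out 1 library at a time gave -0.42 (TSA library 1 out) to 0.15 (vehicle library 1 out).

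The largest fold differences belonged to genes at low levels. Rpl31-ps21, an annotated pseudogene of a ribosomal protein, had 4.04, 5.89 and 2.46 CPM in vehicle and no count in TSA, at least 31.3-fold lower against a floor of 3 counts per library that covers counting error only. As an annotated copy of another gene its count is uncertain. Tram2 stood at 5.14, 6.02 and 2.07 CPM in vehicle against 0.891 and 0.501 CPM in TSA (-2.65 ± 0.63), the integrin chain Itga5 at 2.91, 4.90 and 5.19 CPM in vehicle against 1.02 and 0.456 CPM in TSA (-2.54 ± 0.61), and the G protein-coupled estrogen receptor gene Gper1 at 22.9, 17.6 and 8.85 CPM in vehicle against 5.31 and 1.14 CPM in TSA (-2.34 ± 0.60). Tmbim1 (-2.57 ± 0.57), the secretin receptor Sctr (-2.61 ± 0.81), Col14a1 (-2.51 ± 0.63) and Paqr5 (-2.32 ± 0.69) completed this direction. Upward, Zfp804a stood at 1.77, 4.41 and 0.836 CPM in vehicle against 6.37 and 13.7 CPM in TSA (2.09 ± 0.54) and Rgs10, which shortens G protein signals, at 1.77, 3.09 and 0.616 CPM in vehicle against 6.66 and 7.70 CPM in TSA (1.97 ± 0.55). Tuft1 (1.84 ± 0.65), Ifi203 (1.81 ± 0.82), Fam217b (1.62 ± 0.47), Ccbe1 (1.53 ± 0.45) and the retinoic acid binding protein gene Crabp1 (1.53 ± 0.51) followed. None passed in edgeR (edgeR adjusted p = 0.0948 for Tmbim1, 0.0956 for Rpl31-ps21 and up to 0.309 for Ifi203). DESeq2 called all of them except Tuft1, Ifi203 and Crabp1 at an adjusted p below 0.05.

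To ask whether differences were particular to the Tbr2-positive nuclei, the TSA effect was compared with that in the Tbr2-negative nuclei, 2 TSA against 3 vehicle libraries of the same age, by an interaction term in the same edgeR fit. The effect differed for 0 genes at an adjusted p below 0.05 (0% of genes tested), and for 1103 at an unadjusted p below 0.05 (5.49%). Over 13684 genes with a mean of at least 2 CPM the log2 differences of both populations correlated at 0.56 (Pearson, across genes, which share their libraries and are not independent replicates), and 71.1% had the same sign. The sign in the negative nuclei was also positive for 89.5% of the 1615 genes that were higher in the positive nuclei at an unadjusted p below 0.05, and negative for 85.3% of the 1560 that were lower. Deviations of same-numbered libraries of both populations from their group means correlated at 0.0807 to 0.0994 in vehicle and at 0.117 in TSA. With 2 TSA libraries the values of both TSA pairs are equal by construction. Different-numbered pairs across populations were not computed, so these correlations have no reference.

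Ribosomal protein genes had a median of 0.82 in the positive and 0.81 in the negative nuclei, respiratory chain genes 0.55 and 0.73, splicing regulators -0.29 and -0.42, and nuclear long noncoding RNAs -0.36 and -0.73. Cwc22 differed by -1.68 ± 0.22 and -1.59 ± 0.22, and mt-Rnr1 by 1.73 ± 0.24 and 1.38 ± 0.24. Vldlr had a log2 difference of 0.93 ± 0.15 in the positive and 0.03 ± 0.15 in the negative nuclei, where it stood at 190.2 ± 6.28 CPM in vehicle (n = 3 libraries). The difference between the populations was 0.90 ± 0.22, with an edgeR adjusted p of 0.895. Other genes with large values in the positive nuclei were near 0 in the negative ones: Sema4c (-0.21 ± 0.31), Edc4 (-0.06 ± 0.18), Rnf6 (-0.19 ± 0.22), Tle4 (0.04 ± 0.17) and Prickle2, a planar polarity gene (1.12 ± 0.22 and -0.22 ± 0.22). For each of these 5 the edgeR adjusted p of the difference was 0.895, so none can be called particular to the Tbr2-positive nuclei. Among the genes named here the smallest adjusted p for a difference, 0.634, belonged to the RNA-binding protein gene Rbms3 and to Laptm4b.

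**Figure D4:**
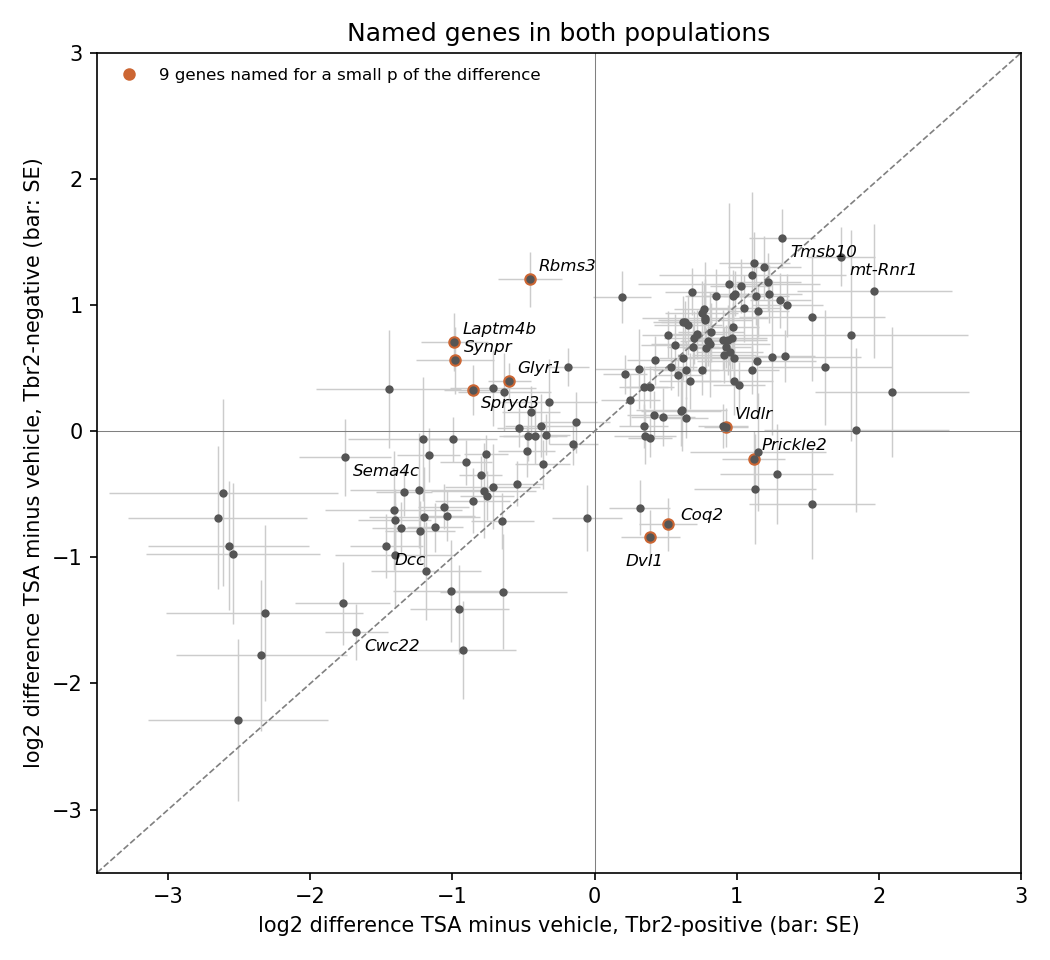
Log2 difference of TSA minus vehicle in Tbr2-positive (horizontal axis) and Tbr2-negative nuclei (vertical axis) for 145 named genes with a mean of at least 2 CPM; bars are standard errors, orange points are 9 genes named for a small p of the difference between populations, and 1 gene lies outside the axes. Most points lie in the quadrants of equal sign, with Cwc22 close to the line of equality and Vldlr near 0 on the vertical axis.

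H3K9ac, a mark of active promoters, was profiled in the same population in 3 vehicle and 4 TSA libraries, and the authors' peaks were read at gene starts (1 kb on either side). The peak lists held 82164, 61487 and 63496 peaks in vehicle and 34045, 40053, 33359 and 31823 in TSA. Sequencing depth and enrichment were not compared between these libraries, so the peak numbers do not measure the amount of H3K9ac. The same limit holds for a peak of a single gene that is missing in TSA libraries. Of 12576 tested genes with a start in the reference, 87.1 to 88.3% had a peak in each vehicle library and 83.3 to 84.3% in each TSA library. A peak was present in all 7 libraries for 81.1% of these genes, for 92.5% of the 1213 that were higher and for 86.9% of the 1019 that were lower in RNA at an unadjusted p below 0.05. All 58 ribosomal protein genes with a start had a peak in all 7 libraries, as did 61 of 64 respiratory chain genes and 23 of 24 splicing regulators. A peak was thus present at most members of lists with positive and with negative medians. Of 116 named genes 98 had a peak in all 7 libraries, Cwc22, Slc38a10, Vldlr, Tle4, Trnp1 and Eomes among them. Ppp2r2c, high in TSA, had a peak in 2 of 3 vehicle and 0 of 4 TSA libraries, and Sst, Pdgfra and Hba-a1 had none in any library.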

How the data were processed

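Count files of 10 RNA libraries were analysed, and 7 H3K9ac peak lists were used for description. RNA files give raw counts for each gene identifier as deposited by the authors, who named mm10, SAMtools and MACS2 in the submitters' processing notes; no aligner, counter or annotation version is named there. Per the labels' protocols the TruSeq RNA v2 kit was used, and no strand setting is named, so overlapping antisense genes cannot be told apart. The peak lists carry -log10 q values written by MACS per the file headers (q threshold 0.1) before they were deposited. The other samples of the series were not analysed here.

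Groups were taken from the sample titles. Genes were kept by filterByExpr and fitted with edgeR 4.0.16 (R 4.3.3): TMM factors, then quasi-likelihood with the robust option, in 1 model whose 4 group means cover the 10 libraries, and Benjamini-Hochberg adjustment over 20078 genes at 0.05. The common biological coefficient of variation was 0.374. The fit had 6 residual degrees of freedom per gene, shared across groups. Library totals were 18567111 to 26282652 counts. No pair of libraries was identical. CPM are deposited counts per library total after TMM scaling, and the standard error is the absolute log2 difference divided by the square root of F. DESeq2 1.42.0, RLE and upper quartile scaling, no filter, the Tbr2-positive libraries alone, a replicate block and leaving out each library were alternatives. The procedure was tested on simulated data. Some single genes are not reported here.

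Gene lists (38, with 789 places of which 769 were tested) are described by counts and medians beside all genes, without a set test. The members and lists were chosen with earlier results of these data known. Genes were named by rule: the 15 smallest p in each direction where ranges do not overlap, the mean reaches 2 CPM and the symbol is no clone name; the 8 largest differences in each direction among those with an unadjusted p below 0.05; up to 3 members of each list with the smallest p; 10 genes in every case (the deacetylase genes Hdac1 and Hdac2, the response genes H1f0 and Cdkn1a, and Trnp1, Mki67, Tbr1, Sox2, Pax6 and Eomes); and 5 in each direction for the interaction. Further list members were chosen after their values were seen, to show the spread of a list. Promoter sequences, spans and gene starts come from RefSeq tables of GRCm38.p6, in which 16908 gene symbols had a span and 58 of 80 ribosomal protein genes a promoter.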

Additional observations from a re-analysis of the deposited data

Results flagged for a closer look

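For 9 named genes every TSA library of the Tbr2-positive nuclei lay on one side of all vehicle libraries, and every TSA library of the Tbr2-negative nuclei on the opposite side of theirs. The interaction test in edgeR gave none of them an adjusted p below 0.05. Coq2, Synpr, Rbms3, Laptm4b, Spryd3 and Glyr1 had been named for a small p of this difference, so their opposite sides are no further evidence. How many of all genes tested had such opposite sides was not counted. In the positive nuclei alone, ranges did not overlap for 15.9% of all genes higher in TSA and 17.6% lower. Values are the TSA effect in positive minus that in negative nuclei on the log2 scale, followed by the effect in each population. Trp73, a p53 relative of Cajal-Retzius cells, had 1.58 ± 0.62 (1.13 ± 0.43 in positive and -0.46 ± 0.44 in negative nuclei). Coq2, of ubiquinone synthesis, had 1.26 ± 0.29 (0.52 ± 0.20 and -0.74 ± 0.21). Kat2b, an acetyltransferase, had 0.92 ± 0.30 (0.32 ± 0.21 and -0.61 ± 0.22), and Ccbe1, a secreted protein of lymphatic growth, 2.11 ± 0.63 (1.53 ± 0.45 and -0.58 ± 0.43). In these 4 the effect was positive in the positive nuclei. It was negative there for Synpr, a synaptic vesicle protein, with -1.55 ± 0.38 (-0.98 ± 0.27 and 0.56 ± 0.27), Rbms3 with -1.66 ± 0.31 (-0.45 ± 0.22 and 1.21 ± 0.22), Laptm4b, a lysosomal membrane protein, with -1.69 ± 0.33 (-0.99 ± 0.24 and 0.71 ± 0.23), Spryd3 with -1.19 ± 0.28 (-0.86 ± 0.21 and 0.33 ± 0.20) and Glyr1, a nucleosome-binding protein, with -0.997 ± 0.21 (-0.60 ± 0.15 and 0.40 ± 0.15). DESeq2 called the difference for Rbms3 (adjusted p = 0.00465), Laptm4b (0.00465) and Glyr1 (0.00847), among 11 genes in all.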

How the results depend on the processing

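The count of 0 genes passing in each direction held under RLE scaling, upper quartile scaling and the Tbr2-positive libraries alone (smallest edgeR adjusted p = 0.0545, 0.0503 and 0.131). Without the low-count filter edgeR called 240 genes higher and 124 lower, and DESeq2 called 549 and 466, with 11 for the difference between populations, which was 0 in every edgeR fit. With the replicate number as a block 8 genes were higher and 5 lower, Cwc22, mt-Rnr1 and Rnf6 among them; 5 of the 13 were also called by DESeq2. The labels do not say what the replicate numbers mark. Same-numbered TSA and vehicle libraries of the positive nuclei deviated with correlations of -0.0211 and -0.0297. With 2 TSA libraries their deviations are mirror images, so these correlations cannot decide whether the numbers pair the samples. Leaving out 1 library at a time gave 0 to 15 genes higher and 0 to 24 lower (vehicle library 3 out: 1 and 2; TSA library 2 out: 15 and 24), with 1 remaining TSA library assumed to vary like the other groups. Genes at an unadjusted p below 0.05 then ranged from 1011 (TSA library 1 out) to 1761 higher and from 995 (vehicle library 1 out) to 1846 lower. Direction changed for 4 named genes, and leaving out 1 library gave log2 differences of -0.0723 (TSA library 2 out) to 0.5126 for Tbr1, -0.12 (TSA library 1 out) to 1.095 for Cdk1, -5.7516 to 0 (vehicle library 2 out) for Slc4a1, a fitted value that is no bound since the gene had no count in TSA, and -0.1782 to 0.15 (vehicle library 3 out; 0.06 with TSA library 1 out) for Eomes, which had 0.0785 under the block. The cause was not tested. Of 38 list medians 27 kept their sign under all 11 alternatives. Only 2 TSA libraries enter every value, and no result was recomputed at a reduced depth.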
